A study of Mus musculus with 30 samples.

Results

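RNA precipitated with tagged ribosomes, aimed at enteric glia, was compared between mice at 24 h after intestinal manipulation (IM24h) and untreated naïve mice. The libraries were chosen by the group entry of the count table, 4 for IM24h and 3 for naïve, which makes 7 of the 29 libraries in the tables used here, where sample labels list 8 of 30. Both groups were of the line B6 Tg(Sox10-icre/ERT2)388Wdr/J crossed with B6N.129 Rpl22tm1.1Psam/J, in which tamoxifen makes cells with an active *Sox10* promoter switch to HA-tagged RPL22, a ribosomal protein. According to the methods of the study the mice were males of 10 to 12 weeks. Tamoxifen was injected on 3 days and ended 1 week before the experiment. IM mice underwent laparotomy and mechanical manipulation of the small bowel, a model of post-operative ileus. Naïve mice had no operation, so surgery, anaesthesia and manipulation cannot be told apart. RNA was precipitated with an antibody to HA from the small bowel *muscularis externa* (*ME*), the muscle layers with the myenteric plexus. Any cell type in which the *Sox10* promoter is active while tamoxifen is present can carry the tag. The study counts 3 to 4 animals per time point, the number of libraries here, and the labels do not say which library is which mouse, so p-values measure the spread between these libraries, which may in part be technical.

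Enteric glia are the glial cells of the gut wall. They ensheathe neurons of the myenteric plexus, and after injury they can become reactive, with altered filaments, growth factors, cytokines and chemokines, and can divide. Mechanical handling of the bowel is known to start an inflammation of the *ME* in which resident macrophages respond first and blood monocytes and neutrophils enter later.

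The libraries differed in a way that has to be known before any gene is read. AY036118, a locus inside the ribosomal RNA (rRNA) repeat on chromosome 17, took 22.2%, 59.2%, 58.1% and 32.9% of all counts in IM24h libraries 1 to 4, numbered by their order in the table, and 13.99%, 5.15% and 2.68% in naïve libraries 1 to 3. Every IM24h library lay above every naïve one, with means of 43.1% ± 18.5 (SD, n = 4) and 7.27% ± 5.95 (SD, n = 3, exact two-sided permutation p = 0.0571, where 0.0286 is the smallest that 4 against 3 libraries can give). Totals were 4063028 to 5248936 counts at IM24h and 4829370 to 4937671 in naïve mice, and without AY036118 they were 4083376, 1708622, 1702478 and 3251770 against 4246906 to 4725264. Genes with at least 1 count numbered 16746, 13560, 11629 and 16477 at IM24h and 16897, 17986 and 18634 in naïve mice, and thinning each library to 1702521 counts left means of 14411 and 17303 (exact permutation p = 0.114). AY036118 was left out of all levels and tests below, and levels are given as CPM, the counts per 1000000 of the remaining TMM-scaled library total. Libraries 2 and 3, both above 50%, were left out in an alternative that was added after the data were seen, and calls that change without them are named in the next paragraphs or beside the result.

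**Figure D1:**
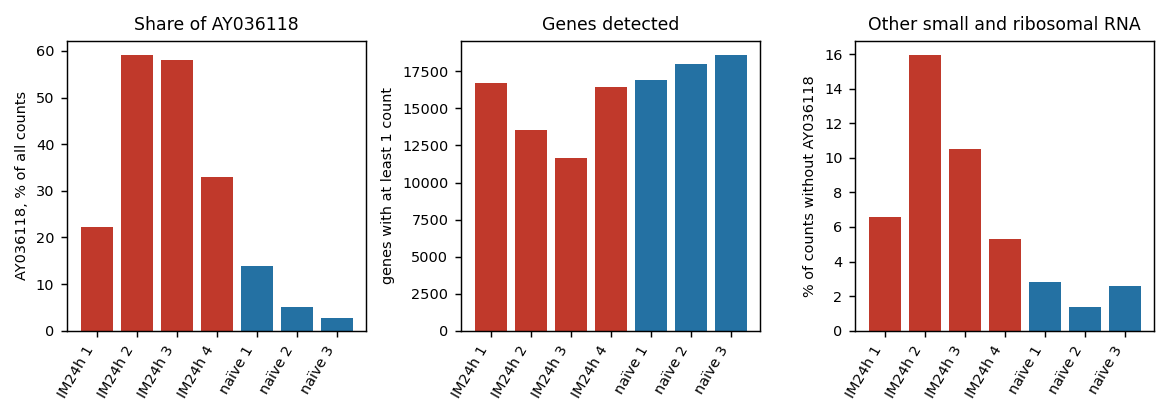
Each bar is 1 library, with the IM24h libraries in red and the naïve libraries in blue. The left panel gives AY036118 as a percentage of all counts, the middle panel the genes detected, at 1 count or more, and the right panel other small and ribosomal RNA as a percentage of counts without AY036118. IM24h libraries 2 and 3 have the highest shares, 59.2% and 58.1%, and the fewest genes, 13560 and 11629.

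Of 15369 genes that passed the filter on low counts, 50 rose and 22 fell at IM24h with a Benjamini-Hochberg adjusted p under 0.05 in the edgeR quasi-likelihood test, 0.325% and 0.143% of the genes tested. At the threshold of the study, over 2-fold with an unadjusted p below 0.05, 933 genes were higher and 933 lower, each 6.07% of those tested. In what follows a gene "called higher" or "called lower" is one past this threshold, while "rose" and "fell" are kept for genes past the adjusted one. Over all genes the log2 fold changes had a median of -0.18. Without any scaling for library size this median was -0.97 and the calls split into 190 higher and 1361 lower. All IM24h libraries lay above all naïve ones for 979 genes (6.37%) and below them for 2268 genes (14.8%). None of the 72 genes past the adjusted threshold kept an adjusted p under 0.05 in each of the 7 fits that left out 1 library, where their highest adjusted p lay between 0.123 and 0.432. Every one kept its direction. No gene passed in edgeR without IM24h library 2 or without IM24h library 4. Without naïve library 1 there were 4 that rose and 3 that fell, without naïve library 2 there were 2 that rose, and without naïve library 3 there was 1. By contrast, 306 rose and 179 fell without IM24h library 1. Without IM24h libraries 2 and 3 there were 67 that rose and 71 that fell, 44 of the 72 among them. The other 28 had edgeR adjusted p between 0.0501 and 0.136 there, and of the genes named below these were *Des*, *Mylk*, *Cnn1*, *Atf3*, *Chaf1a*, *Ctss*, *Msn*, *Psmd2*, *Dbi*, *Slc25a23*, *Tubb4b*, *mt-Nd1*, *mt-Nd4*, *mt-Co2*, *mt-Ts1*, *Gm4204*, *Gm4740*, *Gm5611*, *Gm8129*, *Gm9531*, *Gm12696*, *Gm29216* and *Gm49066*. Of those named below that missed the adjusted threshold with all libraries, *Ccl9*, *Ccr2*, *Jun*, *Lrrn4*, *Serping1*, *Thbs1*, *Tnc* and *Utp20* passed it there. Named genes called with all libraries and not there were *B2m*, *Cxcr2*, *Fos*, *H2-Ab1*, *Il18*, *Jund*, *Ldha*, *Lgi4*, *Mmp14*, *Pecam1*, *Pkm* and *Stmn2*, and further *Akap5*, *Elp6*, *Kirrel2*, *Lrrc17*, *Rasgrp1*, *Sez6*, *Tatdn1*, *Gm10717*, *Gm10800* and *Gm10801*, while *Ccl24*, *Cxcl3*, *Egr3* and *Emcn* did not pass the filter there. With the logarithm of the AY036118 ratio as a covariate 0 genes passed in edgeR, with 279 called higher and 106 lower. In DESeq2, without the covariate, 507 rose and 371 fell past its adjusted threshold, where edgeR has 50 and 22. Since this share separated the groups, the part of the share and that of the manipulation cannot be told apart for any single gene below.

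Pseudogenes and small RNAs made up much of what rose. Of the 50 genes that rose, 20 are annotated as pseudogenes and 6 as small or ribosomal RNA, and 19 are protein coding. Pseudogenes were 40% of what rose and 4.26% of all genes tested, and small and ribosomal RNAs 12% and 0.963%. With libraries 2 and 3 left out pseudogenes were 22.4%, small and ribosomal RNAs 5.97% and protein coding genes 55.2% of the 67 that rose. *Gm6477*, a processed pseudogene (chromosome 10, 39198538 to 39199301), had 61.7, 487, 453 and 379 CPM in IM24h libraries 1 to 4 and 0, 0 and 0 CPM in naïve libraries. Since the naïve group was at the floor of 3 counts per library, this is a rise of at least 552.8-fold (edgeR adjusted p = 0.00637). *Rpl17-ps3*, named for a ribosomal protein of the large subunit, had 170.3, 25.8, 49.5 and 62.2 CPM at IM24h against 0, 0 and 0 CPM in naïve mice, at least 123.2-fold higher (edgeR adjusted p = 0.0221). No naïve library reached any of the IM24h libraries for either gene. *Gm11847*, *Gm22513*, *Gm4740* and *Rpl17-ps5* rose from a naïve group at the floor by at least 99.4-fold, 93.4-fold, 78.8-fold and 48.5-fold, and *Rpsa-ps12*, a copy of a small-subunit ribosomal protein gene, by 6.11 on the log2 scale. The small RNAs *Gm49346* and *Snora73b* rose by 6.88 and 6.59, the pseudogenes *Gm8129*, *Gm9531* and *Gm47184* by 7.57, 6.15 and 5.52, and the long RNA *Gm49066* by 5.55 on the log2 scale. For *Gm8129*, *Gm9531* and *Gm49066* the log2 fold changes were 5.12 (edgeR adjusted p = 0.136), 4.94 (edgeR adjusted p = 0.0709) and 4.62 (edgeR adjusted p = 0.0563) without libraries 2 and 3. *Rpl23a-ps3* went the other way, with 1.36, 0, 0 and 1.68 CPM at IM24h against 25.5, 170.4 and 67.1 CPM in naïve mice (log2 fold change -6.55 ± 1.09 (SE), edgeR adjusted p = 0.0221). Reads of such copies are nearly those of their parent genes, so estimated counts may be split between them and all of these changes are uncertain. The median of the log2 fold changes was 0.99 over the 654 pseudogenes and 2.17 over the 148 small and ribosomal RNAs tested, against -0.26 over 12519 protein coding genes, and without libraries 2 and 3 it was 0.69, 1.13 and -0.13. Small and ribosomal RNA other than AY036118 took 5.30% to 16.0% of counts in IM24h and 1.40% to 2.80% in naïve libraries, as the plot of the libraries shows. Its part in these rises was not tested.

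The glial label was checked against 14 marker genes, all of which were present in the table. *Sox10*, the transcription factor whose promoter drives the recombinase, had 757, 61.5, 82.1 and 459.5 CPM in IM24h libraries 1 to 4 and 849, 1811 and 995 CPM in naïve libraries. IM24h libraries 2 and 3 stood far below the other IM24h libraries (log2 fold change -1.84 ± 0.72 (SE), edgeR unadjusted p = 0.0238, adjusted p = 0.279). All IM24h libraries lay below all naïve ones, as for 14.8% of all genes tested. Without libraries 2 and 3 the log2 fold change was -1.01 (edgeR adjusted p = 0.268), and with the AY036118 covariate it turned to 0.75. *S100b*, a calcium-binding protein of glia, had 352, 752, 799 and 504 CPM at IM24h against 1229, 749.8 and 922 CPM in naïve mice, with overlapping groups and an adjusted p of 0.511 in edgeR. *Gfap*, the glial filament protein, had 301, 124, 33.9 and 200.5 CPM at IM24h against 226, 128 and 146 CPM in naïve mice, and its log2 fold change was -0.01 ± 0.57 (SE, edgeR adjusted p = 0.996). *Sox10*, *S100b* and *Gfap* were thus detected in every library. Library 3 was at 0 for *Foxd3*, *Fabp7*, *Entpd2*, *Ednrb* and *Col28a1*, and library 2 for *Fabp7* and *Col28a1*. Whether glial transcripts were enriched over whole *ME* RNA was not tested. Of the 14 markers 0 were called higher and 5 lower, with a median of -1.30 on the log2 scale. There were again 5 lower without libraries 2 and 3, not the same 5, as *Lgi4* was not called. Leaving out 1 library gave 2 to 6 lower, with 2 without IM24h library 4 or naïve library 2, and the AY036118 covariate gave 1, with a median of -0.46. The markers called lower were *Sox10*, *Entpd2*, *Gfra2*, *Ednrb* and *Lgi4*, of which *Ednrb* encodes an endothelin receptor and *Gfra2* a receptor of neurturin. The summed level of the list was 1600 to 2351 CPM at IM24h and 3859 to 4721 CPM in naïve mice. In every library it was below that of the smooth muscle genes given in the next paragraph. In bulk RNA, fewer cells of a type and less RNA per cell cannot be told apart. Of 9 genes of myelin and Schwann cells 4 were called lower and 0 higher, *Mbp*, *Pmp22*, *L1cam* and *Ncam1*, with a median of -1.75, and with the AY036118 covariate 0 were called lower. *Ncam1*, a cell adhesion molecule, had 617, 331, 246 and 336 CPM at IM24h against 1302, 1245 and 1059 CPM in naïve mice (log2 fold change -1.65 ± 0.38, edgeR adjusted p = 0.0798).

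Lists of genes of other cells that the precipitate could hold had calls in both directions, where 6.07% of all genes were called in each. Of 17 macrophage and monocyte genes tested 4 were called higher and 0 lower, with a median of 0.47 that became -0.12 without any scaling for library size, where the median of all genes was -0.97. The summed level of all 20 genes of that list was 754 to 1209 CPM at IM24h and 240 to 487 CPM in naïve mice, and *Cd68* and *Chil3*, at 0 in all naïve libraries, were also at 0 in 2 and 3 of the 4 IM24h libraries. Neutrophil genes summed to 21.1 to 82.8 CPM against 4.53 to 13.98 CPM, with *Cxcr2* the single one of 3 tested that was called higher, mostly from library 3, and *S100a8*, *Mmp8* and *Retnlg* at 0 in all naïve libraries and in 2, 3 and 2 of the 4 IM24h libraries. Smooth muscle genes summed to 4432 to 11377 CPM against 20665 to 30170 CPM. Of 16 neuronal genes 1 was called higher, *Vip*, and 1 lower, *Stmn2*, each 6.25% and near the share of all genes. Their median was -0.51, their sums of 1240 to 3059 and 1627 to 3706 CPM overlapped, and 4 were called lower without IM24h library 1. Endothelial genes had 3 of 10 called higher, *Pecam1*, *Cldn5* and *Emcn*, and 0 lower, with a median of 1.17 and sums of 110.2 to 255 CPM against 81.0 to 98.7 CPM, and 1 called higher without libraries 2 and 3. Leaving out 1 library gave 0 to 3 called higher, 0 without naïve library 1 and 1 without naïve library 2, and 1 was called lower without IM24h library 1, and the AY036118 covariate or no scaling gave 0 higher. Of 7 genes of interstitial cells, 8 of fibroblasts, 6 of mesothelium and 8 of epithelium 1 each was called lower, the first 3 being *Ano1*, *Dcn* and *Lrrn4*, and 0 higher. Without IM24h library 1 there were 2, 3, 4 and 1 called lower in these lists, and without libraries 2 and 3 there were 1, 2, 3 and 4. For epithelium the count was 4 and 3 without IM24h library 3 and 4 and 7 of 9 without the libraries over 30%, and the AY036118 covariate gave 0 in all 4 lists. Of 12 lymphocyte genes 6 were in the table and only *Ighm*, an antibody heavy chain, was tested and called lower, at 2.95, 0, 0 and 0 CPM at IM24h against 31.95, 35.5 and 24.5 CPM in naïve mice. How far these other cells contribute to the results below was not tested.

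Some genes known from myeloid cells rose. *Itgam*, the integrin chain CD11b of macrophages and granulocytes (chromosome 7, 128062640 to 128118491), had 20.9, 184, 317 and 256 CPM in IM24h libraries 1 to 4 and 6.88, 3.15 and 2.88 CPM in naïve libraries. Library 1 was far below the other IM24h libraries and still above every naïve library (log2 fold change 5.49 ± 0.88 (SE), edgeR adjusted p = 0.0221). *Ccr2*, the receptor by which monocytes follow CCL2, had 101, 50.3, 68.5 and 104 CPM at IM24h against 14.4, 11.03 and 11.3 CPM in naïve mice, with no overlap (log2 fold change 2.72 ± 0.58 (SE), edgeR adjusted p = 0.0667, and 3.05 (edgeR adjusted p = 0.027) without libraries 2 and 3). *Ctss*, the lysosomal protease cathepsin S, had 114, 105, 272 and 152 CPM at IM24h against 37.3, 15.4 and 13.8 CPM in naïve mice (log2 fold change 2.86 ± 0.56 (SE), edgeR adjusted p = 0.049). *Cd300lf*, an inhibitory receptor of myeloid cells, had 18.1, 72.1, 149 and 176 CPM at IM24h against 0, 1.58 and 0 CPM in naïve mice (log2 fold change 7.50 ± 1.31 (SE), edgeR adjusted p = 0.029). Both stood higher in all IM24h libraries. Other genes that mark macrophages were not called. *Adgre1*, which encodes F4/80, had 7.03, 7.93, 0 and 6.39 CPM at IM24h against 12.4, 3.55 and 7.41 CPM in naïve mice. *Lyz2*, lysozyme, had 19.5, 0, 25.8 and 14.1 CPM at IM24h against 56.1, 21.3 and 12.8 CPM in naïve mice and *Tyrobp*, a signalling adaptor, had 4.08, 0, 0 and 8.41 CPM at IM24h against 5.99, 3.35 and 1.85 CPM in naïve mice. Of the macrophage genes 5 were called higher and 0 lower without libraries 2 and 3, and with the AY036118 covariate or without scaling 2 were.

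Chemokines, the attractants of leukocytes, showed small levels with wide spread. *Ccl6* had 197, 103, 106 and 106 CPM in IM24h libraries 1 to 4 and 36.2, 5.32 and 10.3 CPM in naïve libraries, with library 1 highest and no overlap (log2 fold change 2.89 ± 0.68 (SE), edgeR adjusted p = 0.0885). *Ccl9* had 61.5, 70.8, 4.07 and 83.4 CPM at IM24h against 5.33, 1.97 and 6.38 CPM in naïve mice, where IM24h library 3 lay below 2 naïve libraries (log2 fold change 3.58 ± 1.03 (SE), edgeR adjusted p = 0.153). *Ccl2*, the ligand of CCR2, had 5.90, 18.5, 1.36 and 65.3 CPM at IM24h against 0.888, 0.591 and 4.73 CPM in naïve mice (log2 fold change 3.44 ± 1.58 (SE), edgeR unadjusted p = 0.0485, adjusted p = 0.387). Its groups overlapped, and library 4 carried most of the difference. Of 9 CC chemokines tested 4 were called higher, the fourth being *Ccl24*, and *Ccl27a* was called lower, with a median of 2.89. There were 2 called higher without IM24h library 2 or 4 or naïve library 2, and with the AY036118 covariate or without scaling. Of 9 CXC and CX3C chemokines 2 were called higher, *Cxcl2* and *Cxcl3*, and 2 lower, *Cxcl14* and *Cx3cl1*, with a median of 0.61. With 1 library left out 0 to 3 were called higher, 0 without IM24h library 4 or naïve library 2 or 3 and 1 without IM24h library 2 or 3, and 0 without the libraries over 30%, with the covariate or without scaling. No chemokine of either list passed the adjusted threshold in edgeR with all libraries. Among 9 chemokine receptors 3 were called higher, *Ccr2* and *Cxcr2* among them, and 0 lower, with a median of 1.25. Of 12 cytokines 2 were called higher, *Il6* and *Spp1*, and 1 lower, *Il18*, with a median of 0.03. With 1 library left out 1 to 3 were called higher and 0 to 1 lower, with medians of -0.43 to 0.82. The AY036118 covariate gave 0 cytokines of either. *Il6* was listed at 0 in all naïve libraries and at 4.31, 0, 10.2 and 12.1 CPM at IM24h, levels of a few counts.

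Some DNA replication genes were called higher. Before a cell divides the MCM helicase is loaded on replication origins and then unwinds DNA, CAF-1 places histones on the new strands, and DNA ligase 1 joins the fragments of the lagging strand. *Mcm3*, a helicase subunit (chromosome 1, 20802968 to 20820312), had 34.02, 79.3, 168 and 125 CPM in IM24h libraries 1 to 4 and 3.55, 7.09 and 2.47 CPM in naïve libraries. All IM24h libraries lay above the naïve ones, library 1 lowest and library 3 highest (log2 fold change 4.52 ± 0.75 (SE), edgeR adjusted p = 0.0221, and 4.16 (edgeR adjusted p = 0.0378) without libraries 2 and 3). *Chaf1a*, the large subunit of CAF-1 (chromosome 17, 56040439 to 56072289), had 12.02, 258, 239.6 and 162 CPM in IM24h libraries 1 to 4 and 5.99, 7.29 and 4.94 CPM in naïve libraries (log2 fold change 4.78 ± 0.88 (SE), edgeR adjusted p = 0.0399). Here library 1 stood near the naïve libraries while the other 3 were far above, and without libraries 2 and 3 the log2 fold change was 3.82 (edgeR adjusted p = 0.0755). *Lig1*, DNA ligase 1, had 75.3, 99.2, 186 and 144 CPM at IM24h against 43.3, 26.01 and 19.7 CPM in naïve mice (edgeR adjusted p = 0.101). *Mcm7*, another helicase subunit, had 109, 77.4, 90.9 and 116 CPM at IM24h against 29.7, 17.9 and 37.6 CPM in naïve mice (edgeR adjusted p = 0.135). Neither overlapped between the groups. Of 31 replication genes tested 8 were called higher and 1 lower, with a median of 1.32 and 24 above 0, and *Mcm3* and *Chaf1a* rose. The others called higher were *Cdc45*, *Dnmt1*, *Timeless* and *Clspn* and the one called lower was *Gins4*. Leaving out 1 library gave 6 to 10 called higher and leaving out libraries 2 and 3 gave 9 higher and 2 lower. With the AY036118 covariate 2 were called higher and 0 lower, and without scaling 3 and 1. The summed level of the list was 706 to 1278 CPM at IM24h and 374 to 416 CPM in naïve mice.

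Not every gene used as a sign of division stood apart. Of 21 mitosis genes 3 were called higher and 0 lower, *Top2a*, *Prc1* and *Smc2*, with a median of 1.33. There were 2 to 5 called higher when 1 library was left out, 5 without naïve library 2 or 3, and there was 1 without the libraries over 30% AY036118 and 0 with the covariate or without scaling. *Top2a*, the topoisomerase that untangles chromosomes, had 42.2, 181, 52.3 and 272 CPM at IM24h against 28.2, 15.96 and 25.3 CPM in naïve mice (log2 fold change 2.56 ± 0.69 (SE), edgeR adjusted p = 0.127). *Mki67*, which encodes the marker Ki-67, had 16.6, 24.5, 0 and 19.8 CPM at IM24h against 9.98, 8.08 and 6.17 CPM in naïve mice, with overlapping groups and library 3 at 0 (log2 fold change 0.91 ± 1.40 (SE), edgeR adjusted p = 0.864). *Pcna*, the sliding clamp, had 38.6, 30.4, 30.5 and 25.9 CPM at IM24h against 17.5, 17.9 and 6.17 CPM in naïve mice, above all naïve libraries yet with an adjusted p of 0.649 in edgeR. Of 13 nucleotide synthesis genes 2 were called higher, *Dut* and *Ctps*, of 19 genes of cell cycle entry 1, *Ccnd1*, and of 11 DNA repair genes 1, with 0 lower and medians of 0.15, 0.24 and 0.73. Called higher were thus 15.4%, 5.26% and 9.09%, against 6.07% of all genes. When 1 library was left out these counts were 0 to 2, 0 to 3 and 0 to 1, with 0 in the first 2 lists without IM24h library 4 and in the first without naïve library 3. *Ccnd1*, cyclin D1, had 994, 739, 607 and 1064 CPM at IM24h against 431, 366 and 398 CPM in naïve mice, with no overlap (edgeR adjusted p = 0.174).

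Promoter sequences of replication genes are shown because several of these genes were higher together. E2F factors are known to switch on replication genes through sites of the type TTTNGCGC. These 8 letters, on either strand, stood in the window from 250 bases before to 50 bases after the start (RefSeq, GRCm38.p6) of 12 of the 25 replication genes with a window, 48.0%, and of 276 of 10398 tested genes, 2.65%. Of the 8 replication genes with a window that were called higher 5 held it, and of the other 17 genes 7 did. In *Mcm3*, *Mcm7* and *Lig1* the match begins 38, 16 and 26 bases after the start, whereas the *Chaf1a* window has no match to these exact letters. Other spellings of the site were not searched, in *Chaf1a* or in any other window. Capitals mark the match.
Mcm3 (chr1:20820263-20820562, minus strand): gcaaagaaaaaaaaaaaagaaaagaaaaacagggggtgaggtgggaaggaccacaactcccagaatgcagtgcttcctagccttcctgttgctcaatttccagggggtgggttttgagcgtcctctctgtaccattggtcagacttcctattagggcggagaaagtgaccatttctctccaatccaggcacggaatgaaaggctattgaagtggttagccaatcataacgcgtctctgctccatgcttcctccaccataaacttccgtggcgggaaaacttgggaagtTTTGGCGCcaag
Mcm7 (chr5:138171834-138172133, minus strand): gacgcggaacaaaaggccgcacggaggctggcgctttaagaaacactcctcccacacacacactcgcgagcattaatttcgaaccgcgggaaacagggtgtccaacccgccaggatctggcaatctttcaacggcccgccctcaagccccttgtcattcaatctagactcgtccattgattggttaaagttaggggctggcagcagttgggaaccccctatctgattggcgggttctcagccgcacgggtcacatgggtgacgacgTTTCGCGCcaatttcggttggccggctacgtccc
Lig1 (chr7:13278576-13278875, plus strand): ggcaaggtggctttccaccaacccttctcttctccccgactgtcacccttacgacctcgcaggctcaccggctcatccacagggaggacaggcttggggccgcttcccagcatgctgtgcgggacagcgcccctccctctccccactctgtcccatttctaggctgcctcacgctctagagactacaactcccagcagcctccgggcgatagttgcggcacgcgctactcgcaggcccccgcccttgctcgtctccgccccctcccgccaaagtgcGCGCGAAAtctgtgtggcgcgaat
Chaf1a (chr17:56040166-56040465, plus strand): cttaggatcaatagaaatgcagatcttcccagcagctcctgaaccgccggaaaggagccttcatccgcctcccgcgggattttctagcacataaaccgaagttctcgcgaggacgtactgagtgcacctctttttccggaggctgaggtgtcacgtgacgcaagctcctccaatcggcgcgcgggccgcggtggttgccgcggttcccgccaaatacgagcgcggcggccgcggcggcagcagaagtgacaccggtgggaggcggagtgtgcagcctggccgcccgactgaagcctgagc
A match of letters is a description of these windows and not a measured binding site, and some genes have several start sites, of which the one with a match is printed.

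Several transcription factors rose. *Atf3*, a stress-induced factor that marks injured nerve and glia, had 14.3, 178, 197 and 212 CPM in IM24h libraries 1 to 4 and 4.44, 3.94 and 1.85 CPM in naïve libraries (log2 fold change 5.45 ± 0.90 (SE), edgeR adjusted p = 0.0221, and 5.03 (edgeR adjusted p = 0.0508) without libraries 2 and 3). IM24h libraries 2 to 4 were close to each other and library 1 much lower, above all naïve libraries. *Runx1*, a factor known from blood cell formation, had 174, 48.3, 200.9 and 171 CPM at IM24h against 13.3, 9.66 and 6.58 CPM in naïve mice (log2 fold change 3.91 ± 0.62 (SE), edgeR adjusted p = 0.0221). *Ets1*, the founding member of the ETS factors, had 122, 110.4, 248 and 151 CPM at IM24h against 16.6, 10.8 and 24.3 CPM in naïve mice (log2 fold change 3.19 ± 0.52 (SE), edgeR adjusted p = 0.0221). *Sox4*, a factor of progenitor cells, had 834, 1567, 1836 and 1429.7 CPM at IM24h against 304, 209 and 294 CPM in naïve mice (log2 fold change 2.40 ± 0.40 (SE), edgeR adjusted p = 0.0221). None of these 4 overlapped between the groups. *Dusp5*, a phosphatase induced by ERK signalling that inactivates ERK in the nucleus, had 74.8, 283, 389.5 and 229 CPM at IM24h against 14.9, 3.94 and 7.61 CPM in naïve mice (log2 fold change 4.79 ± 0.69 (SE), edgeR adjusted p = 0.0221). Of 17 immediate early genes 7 were called higher and 0 lower, *Fos*, *Jun*, *Junb*, *Jund*, *Egr1*, *Egr3* and *Atf3*, with *Atf3* the single one that rose and a median of 0.85 (-0.06 without scaling, above the -0.97 of all genes). Leaving out 1 library gave 3 to 6 called higher, the fewest without naïve library 2, and 4 without IM24h library 3 or naïve library 1. Library totals without TMM gave 4, the AY036118 covariate 2 and no scaling 1, while 7 were called without libraries 2 and 3. *Jun* had 481, 310.1, 356 and 593 CPM at IM24h against 165, 118 and 105 CPM in naïve mice (edgeR adjusted p = 0.0688). *Egr1* had 148, 108, 192 and 68.3 CPM at IM24h against 25.5, 44.5 and 15.2 CPM in naïve mice (edgeR adjusted p = 0.109), and neither overlapped.

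**Figure D2:**
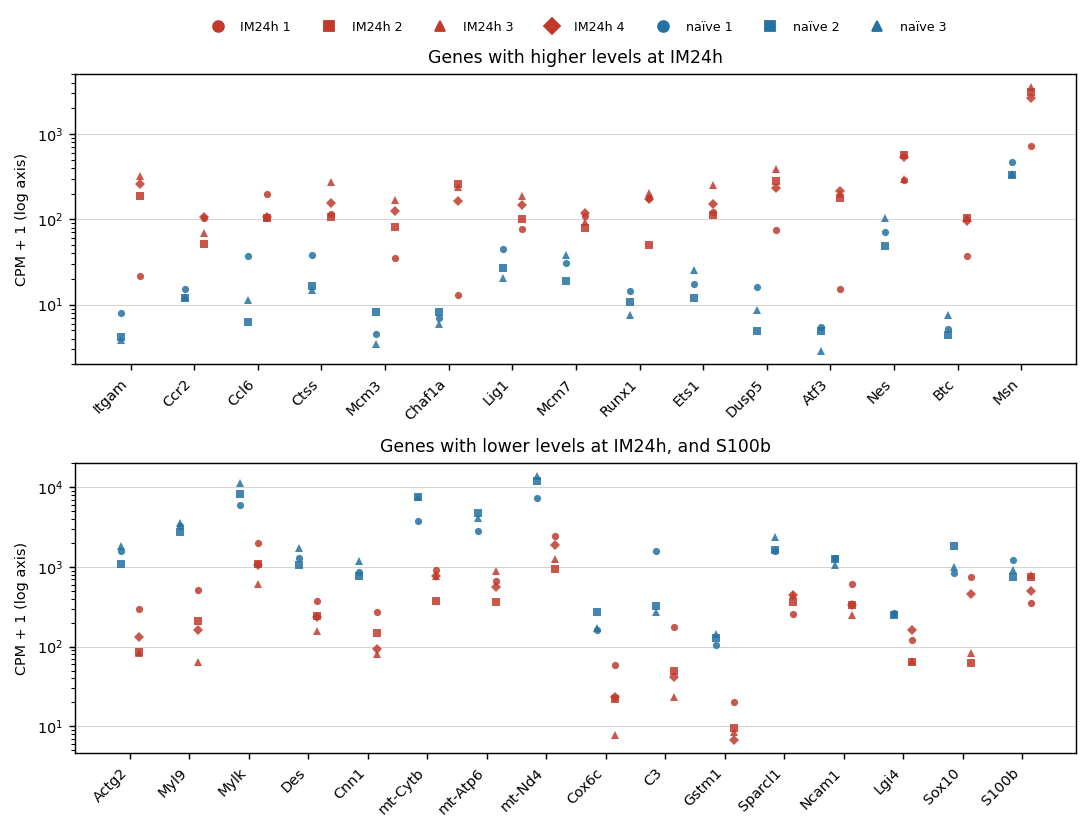
Levels in single libraries as CPM plus 1 on a log axis, with IM24h libraries in red and naïve libraries in blue and 1 symbol for each library number. The upper panel holds genes with higher and the lower panel genes with lower levels, and for *S100b* at the right end the groups overlap. IM24h library 1, the red circle, is nearest to the naïve libraries for *Itgam*, *Chaf1a* and *Atf3*, and libraries 2 and 3 are lowest for *Sox10*.

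Growth factors and genes of reactive glia were partly higher. *Btc*, betacellulin, a ligand of the EGF receptor, had 35.8, 104, 101 and 94.9 CPM in IM24h libraries 1 to 4 and 4.22, 3.35 and 6.58 CPM in naïve libraries (log2 fold change 4.14 ± 0.69 (SE), edgeR adjusted p = 0.0225). Its libraries did not overlap, and library 1 was the lowest at IM24h. *Gdnf*, the neurotrophic factor that signals through RET, had 60.1, 44.3, 14.3 and 126 CPM at IM24h against 6.21, 11.03 and 20.2 CPM in naïve mice (log2 fold change 2.30 ± 0.83 (SE), edgeR unadjusted p = 0.0162, adjusted p = 0.233), with library 3 below the highest naïve library. Of 11 growth and neurotrophic factors *Btc* and *Gdnf* were called higher and *Pdgfa* lower, with a median of 0.73 (-0.14 without scaling), and without libraries 2 and 3 there were 4 of 15 called higher. *Nes*, the intermediate filament nestin, had 287, 561, 297 and 541 CPM at IM24h against 69.2, 47.5 and 102 CPM in naïve mice (log2 fold change 2.53 ± 0.44 (SE), edgeR adjusted p = 0.029). *Vim*, vimentin, had 1168, 459, 147 and 447 CPM at IM24h against 987, 1315 and 825 CPM in naïve mice, with overlap and an edgeR adjusted p of 0.556. Of 16 genes of reactive gliosis 4 were called higher and 0 lower, *Nes*, *Cd44*, *Timp1* and *Tnfrsf12a*, with a median of 0.38 (-0.38 without scaling), and 2 were called higher without IM24h library 4 or without scaling. *Msn*, moesin, which links actin to the membrane, had 730.1, 3114, 3513 and 2630.3 CPM at IM24h against 463, 332 and 334 CPM in naïve mice (log2 fold change 2.73 ± 0.53 (SE), edgeR adjusted p = 0.046, and 2.15 (edgeR adjusted p = 0.0808) without libraries 2 and 3).

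Matrix genes stood out by count. Of 21 genes of matrix remodelling 9 were called higher and 1 lower, with a median of 1.39, and 12 were called higher and 2 lower without libraries 2 and 3. Without scaling 3 were called higher. *Tnc*, tenascin C, a matrix protein of injured tissue, had 512, 331, 90.9 and 457 CPM at IM24h against 84.1, 55.2 and 75.3 CPM in naïve mice (log2 fold change 2.28 ± 0.54 (SE), edgeR adjusted p = 0.0885, and 2.75 (edgeR adjusted p = 0.027) without libraries 2 and 3). *Thbs1*, thrombospondin 1, had 293, 288, 109 and 356 CPM at IM24h against 54.8, 41.4 and 77.3 CPM in naïve mice (log2 fold change 2.18 ± 0.47 (SE), edgeR adjusted p = 0.0675). *Timp1*, an inhibitor of matrix proteases, had 92.99, 65.5, 48.9 and 171 CPM at IM24h against 22.2, 3.94 and 5.35 CPM in naïve mice (log2 fold change 3.17 ± 0.77 (SE), edgeR adjusted p = 0.0956). None of these 3 overlapped, and none passed the adjusted threshold with all libraries. Also called higher were *Mmp3*, *Mmp10*, *Mmp14*, *Adamts4* and *Fn1*, and *Timp3* was called lower. Of 5 metallothionein and zinc transport genes *Mt1* and *Mt2* were called higher and 0 lower, with a median of 1.71. With 1 library left out 1 to 2 of them were called higher, with the AY036118 covariate 1 and without scaling 0. *Mt1*, a metal-binding protein, had 325, 304, 319.6 and 904 CPM at IM24h against 163, 118 and 145 CPM in naïve mice, with library 4 far above the rest (log2 fold change 1.71 ± 0.46 (SE), edgeR adjusted p = 0.131). Of 5 adrenergic receptors 0 were called higher and 0 lower, with a median of -1.05.

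Genes of protein synthesis were higher in part. *Ncl*, nucleolin, which serves in making ribosomes, had 1047, 5265, 5723 and 5053 CPM in IM24h libraries 1 to 4 and 694, 565 and 610.3 CPM in naïve libraries, with library 1 much nearer to the naïve libraries than the others (log2 fold change 2.78 ± 0.56 (SE), edgeR adjusted p = 0.0548). *Ddx21*, a nucleolar RNA helicase, had 299, 721, 931 and 657 CPM at IM24h against 108, 107 and 97.5 CPM in naïve mice (log2 fold change 2.65 ± 0.43 (SE), edgeR adjusted p = 0.0221). Of 20 genes of ribosome biogenesis 4 were called higher and 0 lower, *Ncl*, *Npm1*, *Nop58* and *Utp20*, with a median of 0.79 (-0.02 without scaling), and without libraries 2 and 3 the count was 9. It was 7 without IM24h library 2 or 3 alone, 1 without scaling and 0 with the AY036118 covariate. *Pabpc1*, the poly(A)-binding protein, had 1640.3, 1958, 1476 and 1702 CPM at IM24h against 540.1, 394 and 489.5 CPM in naïve mice (log2 fold change 1.84 ± 0.35 (SE), edgeR adjusted p = 0.0435). *Psmd2*, a subunit of the proteasome, had 273, 559, 538 and 552 CPM at IM24h against 94.97, 106 and 124 CPM in naïve mice (log2 fold change 2.15 ± 0.39 (SE), edgeR adjusted p = 0.0348, and 1.92 (edgeR adjusted p = 0.0532) without libraries 2 and 3). Neither of them overlapped. Of 76 cytosolic ribosomal protein genes 20 were called higher and 7 lower, with a median of 0.15 that fell below 0 on library totals without TMM (-0.03) and without scaling (-0.65). The calls were 17 higher and 9 lower on library totals, 0 and 9 without scaling, 1 and 1 with the AY036118 covariate, 20 and 3 without libraries 2 and 3, and 3 and 4 without the libraries over 30%. Leaving out 1 library gave 15 to 23 higher and 3 to 9 lower, with under 5 lower without IM24h library 2 or 3 or naïve library 1 or 3. Small subunit genes had 11 of 31 called higher and 3 lower, and large subunit genes 9 of 45 higher and 4 lower. *Rpl32* had 557, 680.4, 689 and 1126 CPM at IM24h against 203, 225 and 241.9 CPM in naïve mice, whereas *Rpl15* had 55.8, 29.1, 20.4 and 68.96 CPM at IM24h against 144, 272 and 167 CPM in naïve mice. Of 10 genes of the stress and unfolded protein response *Calr*, *Hsp90b1* and *Pdia4*, all chaperones of the endoplasmic reticulum, were called higher and 0 lower, with a median of 0.73 (-0.19 without scaling). The count was 5 of 12 without libraries 2 and 3 and 0 with the AY036118 covariate. *Calr* had 344, 4022, 3393 and 3359.6 CPM at IM24h against 432, 337 and 396 CPM in naïve mice, so that library 1 lay among the naïve libraries and the other 3 far above.

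**Figure D3:**
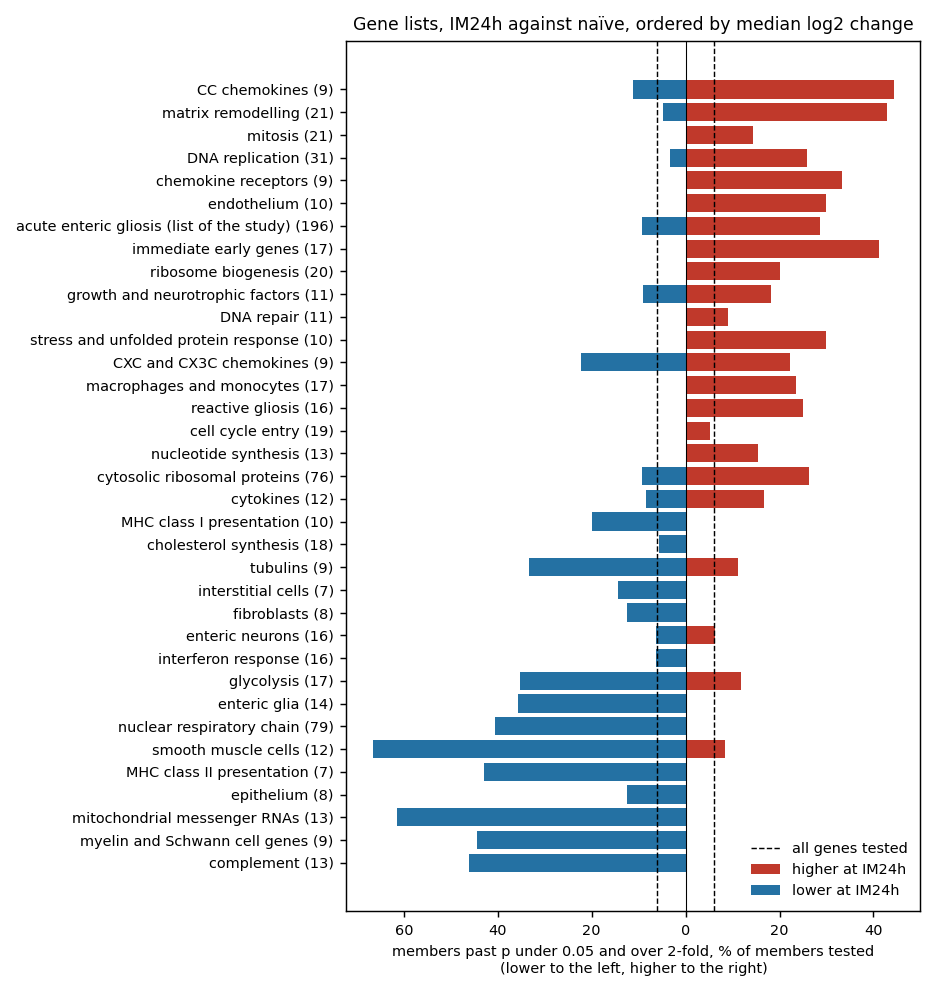
For each gene list with at least 7 members tested (number in brackets), bars give the percentage of members called higher (red, to the right) or lower (blue, to the left) at an unadjusted p under 0.05 and more than 2-fold, ordered by the median log2 fold change. Dashed lines mark the 6.07% of all genes called in each direction. Smooth muscle (66.7%), mitochondrial mRNA (61.5%) and complement (46.2%) reach furthest to the left, and CC chemokines, matrix remodelling and immediate early genes furthest to the right.

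Several genes of the contractile apparatus of smooth muscle fell. *Actg2*, the actin of enteric smooth muscle (chromosome 6, 83512905 to 83536265), had 300.3, 83.98, 81.4 and 133 CPM in IM24h libraries 1 to 4 and 1582, 1082 and 1814 CPM in naïve libraries. Library 1 was highest at IM24h and still far below every naïve library (log2 fold change -3.31 ± 0.49 (SE), edgeR adjusted p = 0.0221). *Myl9*, the regulatory light chain of myosin (chromosome 2, 156775420 to 156781658), had 516, 211, 63.8 and 159.8 CPM at IM24h against 3228, 2744 and 3574 CPM in naïve mice (log2 fold change -3.74 ± 0.59 (SE), edgeR adjusted p = 0.0221). *Mylk*, the kinase that phosphorylates this chain, had 2018, 1083, 613 and 1062 CPM at IM24h against 6026, 8268 and 11254 CPM in naïve mice (log2 fold change -2.83 ± 0.47 (SE), edgeR adjusted p = 0.0221, and -2.48 (edgeR adjusted p = 0.0603) without libraries 2 and 3). *Des*, the filament protein desmin, had 374, 241, 155 and 238 CPM at IM24h against 1280.1, 1074 and 1714 CPM in naïve mice (log2 fold change -2.42 ± 0.38 (SE), edgeR adjusted p = 0.0221, and -2.16 (edgeR adjusted p = 0.0501) without libraries 2 and 3). In all 4 genes every IM24h library lay below every naïve one. Of 12 smooth muscle genes 8 were called lower, of which *Actg2*, *Cnn1*, *Des* and *Mylk* fell, and 1, *Myocd*, was called higher, with a median of -1.50. The other 3 were not called. *Tagln*, transgelin, had 3237, 3002, 779 and 851 CPM at IM24h against 1666, 917 and 1514 CPM in naïve mice, with IM24h libraries 1 and 2 above all naïve ones (log2 fold change 0.53 ± 0.54 (SE), edgeR adjusted p = 0.775). *Myh11*, the heavy chain of smooth muscle myosin, had 1738, 2070.0, 637 and 952 CPM at IM24h against 1946, 2101 and 3023 CPM in naïve mice and *Lmod1*, leiomodin 1, had 264, 786, 594 and 519 CPM at IM24h against 946, 583 and 689.9 CPM in naïve mice, each with overlap (edgeR adjusted p = 0.501 and 0.731). Without libraries 2 and 3 there were 7 called lower and 1 higher, and with the AY036118 covariate 5 lower and 0 higher. *Myocd*, the coactivator that drives these genes together with SRF, had 155, 263, 175 and 239 CPM at IM24h against 127, 55.96 and 51.4 CPM in naïve mice, above all naïve libraries (log2 fold change 1.41 ± 0.44 (SE), edgeR adjusted p = 0.171). SRF binds the CArG box, which stood in 173 of 10398 windows, 1.66%, and in 0 of those of the 8 smooth muscle list genes with a window. The window of *Myl9*, which is not on the list, holds it once, 161 bases before the start, and is printed with the box in capitals.
Myl9 (chr2:156775214-156775513, plus strand): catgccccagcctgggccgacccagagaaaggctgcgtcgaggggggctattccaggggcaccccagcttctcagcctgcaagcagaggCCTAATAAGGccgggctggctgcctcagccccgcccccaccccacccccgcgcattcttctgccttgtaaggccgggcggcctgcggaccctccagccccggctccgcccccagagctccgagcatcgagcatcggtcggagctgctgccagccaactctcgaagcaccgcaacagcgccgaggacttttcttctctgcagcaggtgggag
Muscle cells make up most of this tissue, and the part of their transcripts in these falls was not tested. The change of this list is set against that in whole *ME* RNA below.

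Most mRNAs of the mitochondrial genome were called lower. The respiratory chain passes electrons through complexes I to IV and ATP synthase uses the proton gradient, and its subunits come from both the mitochondrial and the nuclear genome. *mt-Cytb*, cytochrome b of complex III, had 918, 372, 778 and 765 CPM in IM24h libraries 1 to 4 and 3766, 7585 and 7565 CPM in naïve libraries (log2 fold change -3.15 ± 0.45 (SE), edgeR adjusted p = 0.0221). *mt-Atp6*, a subunit of ATP synthase, had 669, 364, 887 and 553 CPM at IM24h against 2819, 4799 and 4119 CPM in naïve mice (log2 fold change -2.66 ± 0.41 (SE), edgeR adjusted p = 0.0221). *mt-Nd4*, of complex I, had 2448, 943, 1274 and 1879 CPM at IM24h against 7370.4, 12124 and 13735 CPM in naïve mice (log2 fold change -2.76 ± 0.46 (SE), edgeR adjusted p = 0.0221, and -2.37 (edgeR adjusted p = 0.0586) without libraries 2 and 3). The groups did not overlap in any of them. Of the 13 mRNAs of the mitochondrial genome 8 were called lower and 0 higher, 6 of them fell (also *mt-Nd1*, *mt-Nd3* and *mt-Co2*), all 13 had a negative log2 fold change and the median was -1.70. Their summed level was 13771 to 18025 CPM at IM24h and 38153 to 59513 CPM in naïve mice. Without libraries 2 and 3 there were 9 called lower, and with the AY036118 covariate 3. In the comparison with whole *ME* RNA below, 1 of the 13 had a change called higher in the precipitate and 4 a change called lower. The median of these log2 differences was -0.11. How much of this RNA was bound to tagged ribosomes was not tested. *Gm28661* and *Gm29216*, which also fell, by 3.53 and 3.27 on the log2 scale, lie next to each other on chromosome 1 at 24614885 and 24615706 in a copy of mitochondrial DNA, and their reads cannot be told apart with certainty from those of the mitochondrial genes. *mt-Ts1*, a mitochondrial transfer RNA, had 639.6, 157, 82.8 and 140.3 CPM at IM24h against 2064, 2443 and 2373 CPM in naïve mice (log2 fold change -3.17 ± 0.61 (SE), edgeR adjusted p = 0.046, and -2.57 (edgeR adjusted p = 0.0835) without libraries 2 and 3).

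Nuclear genes of the respiratory chain were called lower in part, though none passed the adjusted threshold in edgeR. Of 79 tested 32 were called lower and 0 higher, 40.5% against 6.07% of all genes, with a median of -1.42. By complex, 9 of 36 genes of complex I, 3 of 4 of complex II, 6 of 9 of complex III, 6 of 13 of complex IV and 8 of 17 of ATP synthase were called lower, with medians of -1.25, -1.58, -1.74, -1.97 and -1.21. *Cox6c*, a small subunit of complex IV, had 58.1, 21.2, 6.79 and 22.5 CPM at IM24h against 159, 269 and 168 CPM in naïve mice (edgeR adjusted p = 0.0641). *Uqcrb*, of complex III, had 19.5, 17.2, 6.79 and 17.5 CPM at IM24h against 61.5, 109.6 and 86.4 CPM in naïve mice (edgeR adjusted p = 0.0956). For both genes all IM24h libraries lay below all naïve ones, as for 14.8% of all genes tested. *Atp5b*, the catalytic subunit of ATP synthase, had 239.7, 84.6, 166 and 167 CPM at IM24h against 418, 589 and 496 CPM in naïve mice (edgeR adjusted p = 0.0956). The count was 30 without libraries 2 and 3, 18 to 39 when 1 library was left out, the fewest without naïve library 3, and 0 with the AY036118 covariate. *Slc25a23*, a carrier of the inner mitochondrial membrane, had 59.7, 33.1, 33.9 and 40.03 CPM at IM24h against 152, 188 and 216 CPM in naïve mice (log2 fold change -2.15 ± 0.41 (SE), edgeR adjusted p = 0.0452, and -1.91 (edgeR adjusted p = 0.0536) without libraries 2 and 3). Of 17 glycolysis genes 6 were called lower, among them *Aldoa*, *Pkm* and *Ldha*, and *Hk2* and *Eno1* were called higher, with a median of -0.95. Without libraries 2 and 3, or without naïve library 1 or 2 alone, there were 3 lower and 2 higher, and with the AY036118 covariate 0 of either. *Pygb*, which breaks down glycogen, had 180.1, 261, 145 and 164 CPM at IM24h against 588, 566 and 848 CPM in naïve mice (log2 fold change -1.83 ± 0.35 (SE), edgeR adjusted p = 0.046).

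**Figure D4:**
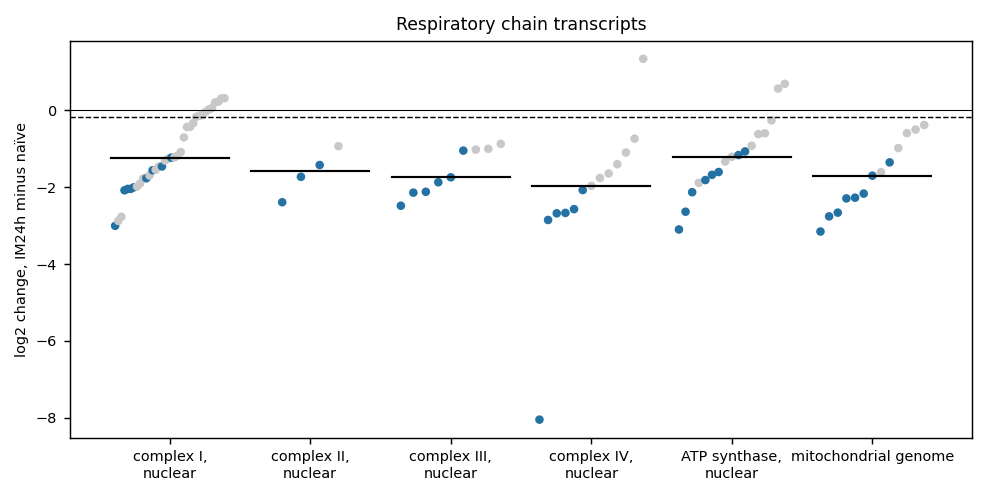
Each point is 1 gene of the respiratory chain, with its log2 fold change at IM24h against naïve mice, grouped by complex for nuclear genes and with the 13 mRNAs of the mitochondrial genome at the right. Blue points are called lower, gray points are not called, black bars are group medians and the dashed line is the median of all genes, -0.18. All 6 medians lie between -1.21 and -1.97.

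Some genes of complement and a few of antigen presentation were called lower. *C3*, the central complement protein, had 175, 48.3, 22.4 and 40.7 CPM in IM24h libraries 1 to 4 and 1568, 326 and 275 CPM in naïve libraries, with naïve library 1 far above the other two and no overlap (log2 fold change -3.33 ± 0.75 (SE), edgeR adjusted p = 0.0792). *Cfb*, factor B of the alternative pathway, had 1.36, 0, 0 and 0 CPM at IM24h against 81.4, 15.8 and 5.97 CPM in naïve mice (log2 fold change -6.21 ± 1.65 (SE), edgeR adjusted p = 0.124). Of 13 complement genes 6 were called lower and 0 higher, also *C2*, *C4b*, *Serping1* and *Cd59a*, with a median of -2.30, and 8 lower and 1 higher without libraries 2 and 3. With the AY036118 covariate 2 complement genes were called lower and 0 higher, and 3 were called lower without naïve library 1. *B2m*, the light chain of MHC class I, had 1170.3, 631, 414 and 1152 CPM at IM24h against 2301, 2054 and 2249.8 CPM in naïve mice (edgeR adjusted p = 0.163). No IM24h library of *B2m* reached a naïve one, as for 14.8% of all genes tested. Of 10 class I genes 2 were called lower and 0 higher, with a median of -0.33, and 0 were called either way without libraries 2 and 3. Of 7 class II genes *H2-Ab1*, *H2-Eb1* and *Cd74* were called lower and 0 higher, with a median of -1.54. There were also 3 without libraries 2 and 3, *H2-Ab1* not among them. The range with 1 library left out was 0 to 3 class II genes called lower, 0 without naïve library 1 and 1 without IM24h library 1 or 4 or naïve library 2 or 3, and the AY036118 covariate gave 0. *Irf7* was the single interferon response gene of 16 called lower, at 0 in all IM24h libraries and at 7.99, 14.98 and 8.02 CPM in naïve mice. This is 6.25% of the list, near the 6.07% of all genes, and 0 were called higher, with a median of -0.53. Of 18 genes of cholesterol synthesis *Fdps* was called lower, 5.56% and also near the share of all genes, and 0 higher, with a median of -0.39.

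Further genes fell. *Gstm1*, a glutathione transferase, had 19.1, 8.60, 7.47 and 5.72 CPM in IM24h libraries 1 to 4 and 105, 127 and 143 CPM in naïve libraries (log2 fold change -3.59 ± 0.58 (SE), edgeR adjusted p = 0.0221). *Sparcl1*, a matrix protein known from astrocytes, had 254, 364, 446 and 441 CPM at IM24h against 1565, 1625 and 2398 CPM in naïve mice (log2 fold change -2.31 ± 0.36 (SE), edgeR adjusted p = 0.0221). *Dbi*, the acyl-CoA-binding protein, had 178, 173, 161 and 174 CPM at IM24h against 576, 718 and 459.9 CPM in naïve mice (log2 fold change -1.77 ± 0.33 (SE), edgeR adjusted p = 0.0399, and -1.74 (edgeR adjusted p = 0.0588) without libraries 2 and 3), with all IM24h libraries close together. *Nkd2*, an inhibitor of Wnt signalling, had 48.99, 20.5, 102 and 42.05 CPM at IM24h against 266, 386 and 311 CPM in naïve mice (log2 fold change -2.59 ± 0.49 (SE), edgeR adjusted p = 0.0452). In each of these 4 genes the lowest naïve library was above the highest IM24h library. *Tubb4b*, a beta tubulin, had 20.2, 5.29, 5.43 and 8.75 CPM at IM24h against 55.7, 233 and 88.7 CPM in naïve mice (log2 fold change -3.63 ± 0.69 (SE), edgeR adjusted p = 0.0452, and -3.11 (edgeR adjusted p = 0.0748) without libraries 2 and 3). Of 9 tubulins it was the single one that fell, while *Tuba1a* and *Tubb2b* were also called lower and *Tubb6* higher, with a median of -0.46. With the AY036118 covariate 0 tubulins were called.

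The acute enteric gliosis list of the study was drawn up by its authors from RiboTag libraries of this series that include the naïve ones used here. It is therefore not independent evidence of a direction. The list as read here holds 242 symbols, which is not the exact number in the main text of the study. Of these 222 were in the table and 196 were tested at IM24h, where 56 were called higher and 18 lower, 28.6% and 9.18%, with a median of 0.91. *Runx1*, *Ets1*, *Sox4*, *Nes*, *Btc*, *Dusp5*, *Atf3*, *Ddx21*, *Ier5l*, *Rpsa-ps12* and *Tmed10-ps* were the 11 that rose, and *Myl9*, *Des* and *Sparcl1* the 3 that fell. Without libraries 2 and 3 there were 78 called higher and 17 lower, without scaling 17 and 23 with a median of 0.09, and with the AY036118 covariate 22 and 4. Leaving out 1 library gave 38 to 65 higher and 14 to 24 lower.

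To place IM24h in time, it was compared with the 4 libraries at 3 h after manipulation (IM3h), which involves no naïve library. Of 14154 genes tested 124 were higher and 133 lower at IM24h than at IM3h with an edgeR adjusted p under 0.05, 0.876% and 0.94%, and at the threshold of the study 918 and 1040 genes, 6.49% and 7.35%. All libraries of one time lay above all of the other for 683 genes (4.83%) at IM24h and for 1518 genes (10.7%) at IM3h. AY036118 took 2.02% to 10.3% of counts at IM3h, below every IM24h library, so share and time cannot be told apart here either. *Hbegf*, a ligand of the EGF receptor, had 66.6, 53.5, 67.7 and 99.8 CPM at IM24h and 2241, 3020.5, 3388 and 3727 CPM at IM3h (log2 difference -5.42 ± 0.40 (SE), edgeR adjusted p = 4.44e-05). *Mt2* had 172, 43.4, 129.8 and 256 CPM at IM24h and 10204, 5458, 2561 and 2258 CPM at IM3h (log2 difference -5.09 ± 0.67 (SE), edgeR adjusted p = 0.00284). *Egr1* had 137, 109, 202 and 64.3 CPM at IM24h and 1450.4, 2041, 2286 and 1682 CPM at IM3h (log2 difference -3.87 ± 0.41 (SE), edgeR adjusted p = 0.000636). All IM3h libraries were more than an order of size above the IM24h libraries for *Hbegf*. *Gdnf* had 55.8, 44.8, 14.98 and 119 CPM at IM24h and 539.9, 834, 774 and 775 CPM at IM3h (log2 difference -3.63 ± 0.53 (SE), edgeR adjusted p = 0.00499). *Fos* had 28.02, 22.7, 64.9 and 7.92 CPM at IM24h and 111, 260.0, 279.6 and 150.4 CPM at IM3h (log2 difference -2.71 ± 0.58 (SE), edgeR adjusted p = 0.034). *Nes* had 267, 567, 312 and 509 CPM at IM24h and 977, 957, 1311 and 1869 CPM at IM3h (log2 difference -1.63 ± 0.37 (SE), edgeR adjusted p = 0.0429). None of these 6 genes overlapped between the times. Of 19 immediate early genes 17 were called lower than at IM3h and 0 higher, with a median of -2.40, and of the 215 gliosis list genes tested 111 were called lower and 7 higher. The 10 largest differences in each direction were in genes at or near 0 at 1 of the times. Among them *Dnah14*, a dynein heavy chain, had 0, 0, 0.713 and 0 CPM at IM24h and 40.8, 64.8, 72.2 and 66.7 CPM at IM3h, at least 42.7-fold lower at IM24h (edgeR adjusted p = 0.00172). *Bc1*, a small RNA known from neurons, had 18.3, 62.2, 14.98 and 9.18 CPM at IM24h and 0, 0.304, 0.188 and 0.155 CPM at IM3h, at least 56.5-fold higher at IM24h (edgeR adjusted p = 0.0206). The direction of the gliosis list is again not independent, since the study chose it on IM3h libraries too.

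Some myeloid and replication genes had the opposite order in time. *Itgam* had 19.4, 186, 333 and 241 CPM at IM24h and 11.7, 20.5, 17.3 and 23.4 CPM at IM3h (log2 difference 3.42 ± 0.67 (SE), edgeR adjusted p = 0.0239), with IM24h library 1 within the range of IM3h. *Ccr2* had 93.97, 50.8, 72.02 and 97.9 CPM at IM24h and 8.35, 4.40, 15.9 and 5.10 CPM at IM3h (log2 difference 3.22 ± 0.59 (SE), edgeR adjusted p = 0.0202). *Ccl6* had 183, 104, 111 and 99.4 CPM at IM24h and 11.9, 7.90, 12.8 and 27.7 CPM at IM3h (log2 difference 3.05 ± 0.50 (SE), edgeR adjusted p = 0.011). Neither of the last 2 overlapped between the times. *Mcm3* had 31.6, 80.2, 176 and 117 CPM at IM24h and 3.44, 7.90, 17.8 and 22.7 CPM at IM3h (log2 difference 2.96 ± 0.68 (SE), edgeR adjusted p = 0.0465). *Lig1* had 69.9, 100.3, 195 and 136 CPM at IM24h and 20.02, 14.7, 18.8 and 50.1 CPM at IM3h (log2 difference 2.27 ± 0.51 (SE), edgeR adjusted p = 0.0425). Both were higher in all IM24h libraries than in any at IM3h. Of 29 replication genes 6 were called higher and 2 lower than at IM3h, with a median of 0.67, and *Mcm3* and *Lig1* passed the adjusted threshold. Of 17 macrophage genes 5 were called higher and 0 lower, with a median of 0.77.

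**Figure D5:**
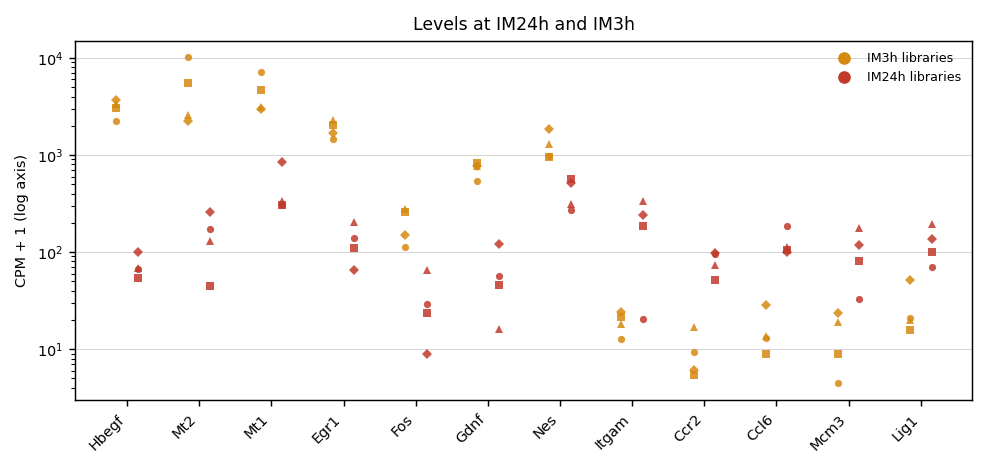
Levels in single libraries at IM3h (orange) and IM24h (red) as CPM plus 1 on a log axis, scaled within the comparison of these 2 times. The IM3h libraries lie above the IM24h libraries for the 7 genes at the left, from *Hbegf* to *Nes*, and the order is the other way round for the 5 at the right except for *Itgam* in IM24h library 1.

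Whether the change at IM24h was the same in whole *ME* RNA was tested as an interaction over 7 RiboTag and 7 *ME* libraries. The *ME* libraries at IM24h are labelled as input, which the study took from the lysates used for precipitation, so they may share mice with the RiboTag libraries. The fit treats all libraries as independent, since their names in the tables give no pairs. By the labels the naïve *ME* mice are of a *Gfap*-Cre line and the IM24h *ME* mice of the *Sox10* line, so that line and manipulation cannot be told apart in *ME*. AY036118 took 16.1% to 33.5% of counts in naïve *ME* against 1.33% to 6.50% at IM24h, the reverse of the RiboTag libraries. Of 17272 genes 32 had a higher and 45 a lower change in RiboTag than in *ME* with an edgeR adjusted p under 0.05, 0.185% and 0.261%. At the threshold of the study there were 813 and 1372, 4.71% and 7.94%, with a median of -0.28 over all genes. Of 12 smooth muscle genes 4 and 1 were past it, with a median of -0.01. Of 20 macrophage genes these were 0 and 4 (median -1.03), of 13 complement genes 0 and 6 (-2.36) and of 7 class II genes 0 and 6 (-2.51). Of 14 glial markers they were 1 and 2 (-0.77). The part of each cell type in these differences was not tested. *Btc* differed (log2 difference of changes 4.14 ± 0.76 (SE), edgeR adjusted p = 0.0314), with 10.01, 14.97, 9.96 and 5.41 CPM at IM24h and 13.96, 7.75 and 9.64 CPM in naïve mice in *ME*. *Ets1* differed as well (log2 difference of changes 3.08 ± 0.57 (SE), edgeR adjusted p = 0.0314), with 20.7, 28.1, 20.9 and 15.03 CPM at IM24h and 21.02, 18.3 and 21.6 CPM in naïve mice in *ME*. In *ME* the groups of both genes overlapped. *Irf7*, at 0 in all IM24h RiboTag libraries, also differed (edgeR adjusted p = 0.0364), with 7.596, 8.52, 9.61 and 8.87 CPM at IM24h and 8.47, 9.41 and 5.85 CPM in naïve mice in *ME*. *Mcm3*, *Itgam*, *Ccr2* and *Ccl6* had differences of 1.58, 0.87, -1.02 and -0.74 on the log2 scale, which did not pass in edgeR (adjusted p = 0.415, 0.740, 0.343 and 0.729).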

How the data were processed

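RNA bound to HA-tagged ribosomes (RiboTag) and whole *ME* RNA was sequenced with 3′ end libraries. As deposited by the authors, the values are estimated counts for each transcript, or for each gene in *ME*, from single-end reads trimmed with cutadapt and aligned with STAR 2.5.3 to mm10 with Ensembl release 99 in Partek Flow, and the tables hold features with at least 10 counts in total. Deposited tables of the authors' own comparisons, which hold p-values, FDR, ratios, fold changes and group means, were not used, nor was the *ME* transcript table. The naïve counts were identical in all RiboTag tables over 38199 shared transcripts.

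Counts of the transcripts of a symbol were added up and then rounded, and AY036118 was left out. Low genes were removed by filterByExpr and libraries scaled by TMM. The quasi-likelihood test of edgeR 4.0.16 (limma 3.58.1, R 4.3.3) was fitted to IM24h against naïve, IM24h against IM3h and the interaction with *ME*, with Benjamini-Hochberg adjustment over all genes, and was tested on simulated data. DESeq2 1.42.0 was an alternative, as were other scalings, filters and covariates, thinning and the omission of single libraries and of those with over 30% or over 50% AY036118, the last being added after the data were seen. A library at or under 3 counts was taken as at the floor for bounds on fold changes. Single values were compared by exact permutation tests.

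Libraries carry the group in their names, and their numbers follow the order of names in the table. Genes named are those the study names at this time, the 15 largest rises and 15 largest falls past the adjusted threshold without overlap, the 4 members of each of 39 gene lists with the smallest p and further members past the adjusted threshold, a set of known glial and cell cycle genes, and the 10 largest differences in each direction against IM3h; other genes are named as members of a list that passed a threshold or to show a marker's level. Some genes that the rule selects are not reported here. Members and lists were chosen with earlier results of these data known. Gene positions and promoter windows are from RefSeq or the annotation of GRCm38.p6, and 10398 of 15369 genes had a window.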

Additional observations from a re-analysis of the deposited data

Results flagged for a closer look

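Of 130 levels checked over the 4 IM24h libraries, 11 had 1 library far from the other 3 (a gap above Dixon's 95% limit), 8.46%. That limit flags about 1 in 20 where values are independent and normally distributed. Levels here come from the same 4 libraries and need not be normal, so no excess can be read from this share. IM24h library 1 was the one apart in 6 of them. It was highest for *Ccl6*, at 197.3 CPM with the next library at 105.9 CPM, and for *mt-Ts1*, at 639.6 CPM with the next at 156.7 CPM. It was lowest for *Btc* (35.84 CPM, next 94.86), *Psmd2* (272.9 CPM, next 538.2), *Gm4204* (349.5 CPM, next 1565) and the summed ribosome biogenesis genes (2194 CPM, next 6609). Library 3 was highest for *Snora73b* (142.5 CPM, next 48.93), *Gm49066* (139.1 CPM, next 34.38), *Gm43275* (631.8 CPM, next 213.6) and *Gm5611* (359.0 CPM, next 80.06), and library 4 for *Mt1* (903.6 CPM, next 325.0).

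Of the 72 genes past the adjusted threshold against naïve mice, 14 had a change at IM24h that differed between RiboTag and *ME* in the interaction test of edgeR. The log2 difference of the changes was 13.8 for *Gm6477* (edgeR adjusted p = 0.000124), 11.89 for *Gm49346*, 9.504 for *Rpl17-ps3*, 9.409 for *Gm4740*, 5.248 for *Gm9531*, 5.145 for *Gm10110*, 4.781 for *Gm7809*, 3.623 for *AC124742.1*, 3.416 for *Gm12696*, 2.418 for *Gm9843* and -7.038 for *Rpl23a-ps3*. For *Gm42418*, at the rRNA repeat, it was 4.955, for *Btc* 4.145 and for *Ets1* 3.084. Of the other genes named in the text it differed for *Irf7* (-8.818), *Dnah14* (-7.581), *Eno1* (3.902) and *Akap5* (3.157). Where a RiboTag group lies at 0 the size depends on the prior count and is no bound, and the naïve *ME* mice are of another line.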

How the results depend on the processing

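No paired analysis was possible because library names in the count tables carry no replicate number. Of 180 genes that the naming rule covers and that were called at the threshold of the study, 1120 of 1244 values with 1 library left out kept direction and side of the threshold, 124 lost the threshold and 0 reversed, and under the other alternatives 1835 of 2135 kept both, 278 lost the threshold and 22 reversed. Genes that were not called are left out of these counts, and some change sign, such as *Gfap* at -0.39 to 0.33 with 1 library left out. Of the 40 lists, the count called in either direction moved by more than 1.5 times in 37 with the covariate, 34 with 1 library left out at least once, 29 without scaling, 19 without the libraries over 30%, 18 without those over 50% and 5 on library totals.

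Genes that rose and fell past the adjusted threshold in edgeR against naïve mice (50 and 22) numbered 61 and 42 with the size factors of DESeq2, 29 and 17 on library totals, 1 and 0 without scaling, 124 and 90 without the filter (1495 called higher), 31 and 16 in a fit over all RiboTag groups (528 called higher), 0 and 0 with the AY036118 covariate (279 called higher and 106 lower), and 507 and 371 in DESeq2. Without scaling 190 were called higher. Without the 3 IM24h libraries over 30% AY036118 they were 124 and 274 (1813 called lower), with the lone IM24h library assumed to vary like the naïve ones, and without the 2 over 50% they were 67 and 71 (1586 called lower). With 1 library left out, 729 to 1155 were called higher, 581 to 1462 called lower, 0 to 306 rose and 0 to 179 fell, the highest without IM24h library 1, except that 0 came without IM24h library 2 or 4.

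Against IM3h the 257 genes became 133 without scaling, 1158 in DESeq2, 147 without the libraries over 30%, 1 with the covariate, 44 in a fit over all RiboTag groups, and 45 (without IM3h library 2) to 537 (without IM24h library 1) with 1 left out. For the interaction the 77 became 863 in DESeq2, 1042 and 637 without the libraries over 30% and 50%, 49 after thinning, and 4 (without *ME* naïve library 2) to 910 (without IM24h library 1). The cause of these moves was not tested, beyond the fewer libraries. The difference in the AY036118 share was 30.5 to 42.8 percentage points, and that in genes detected -3950 to -2245, with 1 library left out.

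Log2 fold changes of called genes that reversed without the libraries over 30% were -0.0037 for *Eno1*, -0.18 for *Calr*, -0.19 for *Nop58*, -1.71 for *Gm10800*, -1.77 for *Gm10801* and -1.71 for *Gm10717*, and without those over 50% -0.57, -0.37 and -0.53 for the last 3. With the covariate they were 0.75 for *Sox10*, -0.22 for *Eno1*, 0.056 for *Pkm*, -0.91 for *Kirrel2*, -3.16 for *Rasgrp1*, -0.13 for *Akap5*, -0.21 for *Tatdn1*, -0.32 for *Elp6*, -0.046 for *Lrrc17*, -0.20 for *Sez6*, -3.10 for *Gm10800*, -2.73 for *Gm10801* and -3.34 for *Gm10717*.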

Other observations

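A set of genes with no common function, chosen after their values were seen, stood highest in IM24h libraries 2 and 3 and lowest in library 4. *Akap5*, an anchor of protein kinase A, had 2460.4, 5253, 5351 and 1246 CPM in IM24h libraries 1 to 4 and 1472, 889.9 and 713 CPM in naïve libraries and 27.5, 33.9, 42.4 and 51.5 CPM at IM3h. *Tatdn1*, a nuclease-like gene, had 4032, 8028, 8756 and 2151 CPM at IM24h against 2504, 1518 and 974 CPM in naïve mice and 63.1, 61.5, 117 and 57.2 CPM at IM3h. *Lrrc17*, *Elp6* and *Sez6* had the same libraries highest and lowest, of which libraries 2 and 3 have most AY036118. All 5 genes lay far above every IM3h library, with log2 differences of 6.53, 6.27, 6.29 and 6.01 for the first 4 in the order *Akap5*, *Tatdn1*, *Lrrc17* and *Elp6* (edgeR adjusted p = 0.00012, 0.000173, 0.00012 and 0.00012). None passed the adjusted threshold against naïve mice in edgeR, where the adjusted p lay between 0.167 and 0.214.

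Another 3 genes, *Gm10800* and *Gm10801* on chromosome 2 and *Gm10717* on chromosome 9, also chosen after their values were seen, separated the IM24h libraries from each other. *Gm10800* had 411, 8521, 18685 and 1409 CPM in IM24h libraries 1 to 4 and 1505, 1062 and 1447 CPM in naïve libraries, so that libraries 2 and 3 were several times above and library 1 below all naïve libraries. *Gm10801* had 53.5, 1054, 2651 and 232 CPM at IM24h against 189, 145 and 214 CPM in naïve mice and *Gm10717* had 35.8, 791, 1919 and 128 CPM at IM24h against 127, 109 and 115 CPM in naïve mice, in the same order. The part of the AY036118 share in these levels was not tested.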
